A study of Rattus norvegicus with 4 samples.

Results

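The genes described here move sodium and calcium across the surface membrane of heart muscle cells. They are 3 beta subunits of the sodium pump (Atp1b1, Atp1b2, Atp1b3), its regulator Fxyd1, the sodium-calcium exchanger Slc8a1 and 2 plasma membrane calcium pumps (Atp2b1, Atp2b4). These 7 genes, of 22250 in the files, were matched by exact symbol, and each symbol belonged to 1 gene. They were listed with the comparison of Cpeb4 siRNA against control siRNA already known. Their values in that comparison are therefore given as a description, without the p-values of single members. How many of them passed the tests across all genes is counted beside the share of all genes that did, and nothing is supported with either.

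The sodium pump is an enzyme of a catalytic alpha subunit and a glycosylated beta subunit, which uses ATP to export sodium and import potassium. The beta subunit is needed for the alpha subunit to fold and reach the surface, and small FXYD proteins tune the assembled pump. The sodium gradient it makes drives the sodium-calcium exchanger, the main route by which a heart muscle cell expels the calcium that enters at each beat. Plasma membrane calcium ATPases remove calcium too, at lower capacity, and are regulated by calmodulin.

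Ribosome footprints, the mRNA pieces that a ribosome shields from RNase I, were sequenced from cultured ventricular cardiomyocytes of Wistar rats aged 1 to 2 days. The cells were isolated with trypsin and a Percoll gradient. They received a control siRNA (2 libraries) or an siRNA against Cpeb4 (2 libraries, called siCpeb4 here) for 72 h. CPEB4 binds elements in mRNA tails and regulates polyadenylation and translation. The labels of every library also mention an mTORC1 inhibitor, Torin1 at 250 nM for 24 h, without saying which cells received it. They do not say that replicates came from separate cultures, so the errors rest on a spread between libraries that may be technical.

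Footprints counted in genes numbered 3554011 to 5910911 per library, of which these 7 genes took 0.286% to 0.321%. Each level is in CPM, a gene's count relative to its library's total after TMM scaling. A fold change is on the log2 scale, siCpeb4 minus control, with its standard error (SE) from edgeR. The edgeR fit shares information on spread between genes, so an SE does not measure the spread of that gene's own libraries alone. Cpeb4 itself had 60.2 and 72.5 CPM in the controls and 8.18 and 9.8 CPM in the siCpeb4 libraries, or -2.86 ± 0.17 on the log2 scale (edgeR adjusted p = 1.57e-09). Of 12 cardiomyocyte markers, 11 were found under their symbol and tested, and they summed to 62118 to 69633 CPM in every library. Ttn was the one not matched by symbol.

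Atp1b1, the ubiquitous and main cardiac beta subunit, was the member with the largest difference. Its level was 872 and 952 CPM in control replicates 1 and 2 and 651 and 628 CPM in siCpeb4 replicates 1 and 2. Both siCpeb4 libraries lay below both controls, and the gap between the groups was wider than the gap within either. The means were 912 ± 56.6 CPM (SD, n = 2) and 639.7 ± 16.4 CPM (SD, n = 2). The fitted level after siRNA was 0.702 of the control level, which is -0.51 ± 0.10 (SE) in log2 units. Across the 4 pairings of a siCpeb4 with a control library, the log2 difference ranged from -0.60 to -0.42. In such bulk libraries, fewer cells of a type and fewer footprints per cell cannot be told apart. No mRNA levels were used here, so for every gene a change in mRNA and a change in footprints per mRNA cannot be told apart either. The gene had 3183 to 5083 counts per library. The control replicates differed from each other by more than counting error, with exact 95% Poisson intervals of 848 to 896 CPM and 919.6 to 985 CPM.

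For the other beta subunits the groups overlapped. Atp1b2, first known as an adhesion molecule on glia, had 36.2 and 41.5 CPM in the controls and 46.4 and 38.5 CPM after Cpeb4 siRNA. The spread within each group was as wide as the gap between the means, and the log2 fold change was 0.14 ± 0.15 (SE). Atp1b3, a broadly expressed beta subunit, had 107 and 101 CPM in the controls and 104 and 119 CPM in the siCpeb4 libraries. These groups overlapped as well, with a log2 fold change of 0.09 ± 0.12 (SE), which became -0.01 without siCpeb4 replicate 2. Atp1b4, which is known as a muscle protein of the nuclear membrane, had 2 counts in all libraries together and was not tested.

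**Figure D1:**
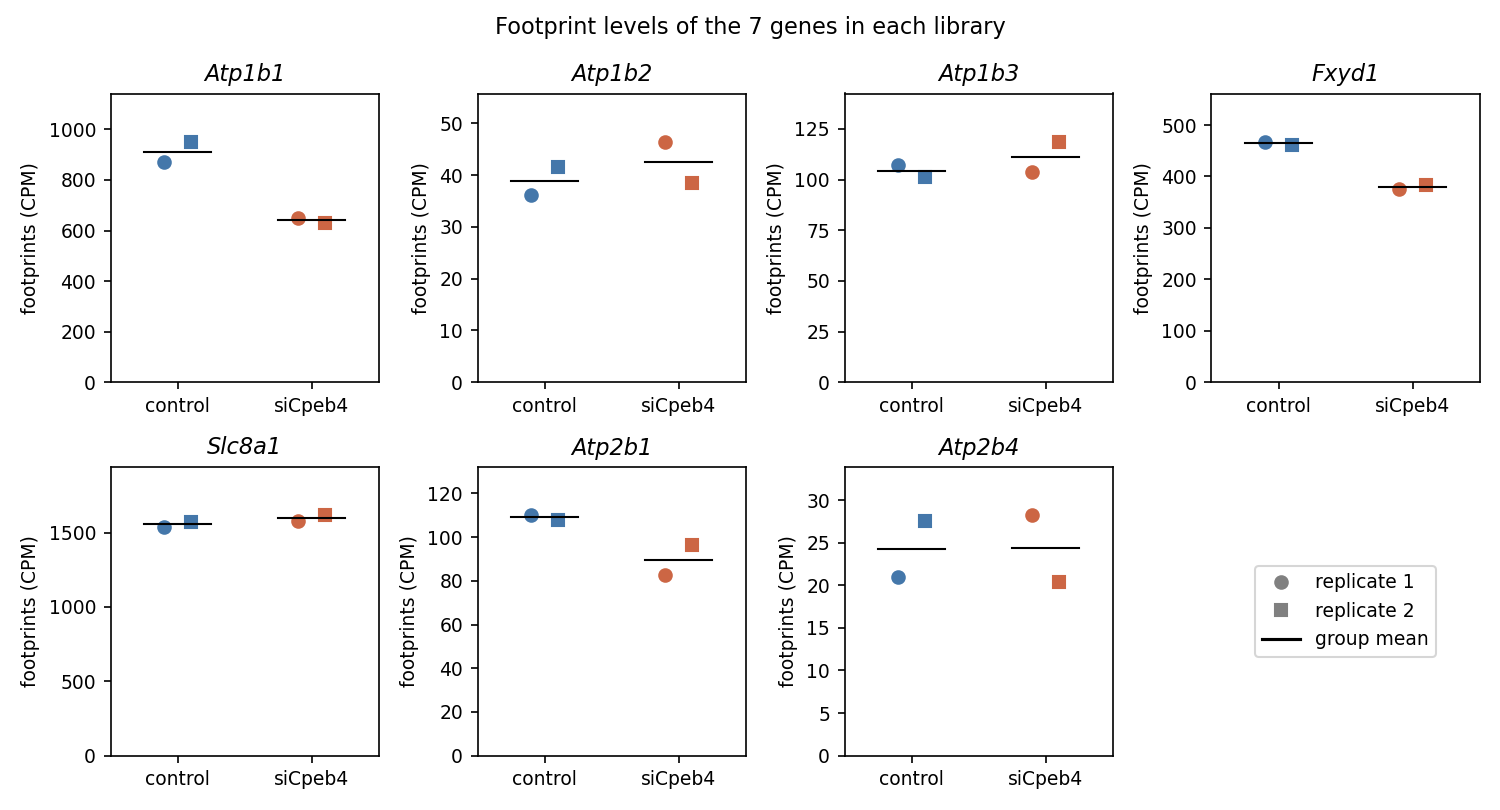
Footprint level of each of the 7 genes in CPM (y axis, from 0) in the 2 control and 2 siCpeb4 libraries, with circles for replicate 1, squares for replicate 2 and a line at the group mean. For Atp1b1, Fxyd1 and Atp2b1 both siCpeb4 points lie below both control points, and for Slc8a1 the 4 points lie between 1538 and 1617 CPM.

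Fxyd1 encodes phospholemman, a small membrane protein and major target of protein kinases in heart muscle, which restrains the pump until it is phosphorylated. It had 468 and 461 CPM in the controls and 375 and 383 CPM in the siCpeb4 libraries. Replicates lay close together, so that both siCpeb4 libraries were below both controls by a log2 difference of -0.32 to -0.27. The log2 fold change was -0.29 ± 0.10 (SE), with group means of 465 ± 4.53 CPM and 379 ± 5.44 CPM (SD, n = 2 each). Among FXYD genes, Fxyd1 took 89.2% and 92.4% of the footprints in the controls and 90.4% and 89.7% after siRNA, and those ranges overlap. Fxyd5, known as dysadherin, was at 17.0 ± 2.16 CPM in controls and 17.1 ± 2.16 CPM after siRNA (SD, n = 2 each; edgeR adjusted p = 0.996). Fxyd6 had a log2 fold change of -0.43 ± 0.22 (SE) and Fxyd2 one of -0.13 ± 0.32 (SE), and both groups of libraries overlapped. All 4 tested FXYD genes were negative (median -0.21), beside 50.5% of all genes tested, and none was called.

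Fxyd1 and Atp2b1 are members of which both siCpeb4 libraries lay below the controls, and their promoters are shown for that reason. They are the 250 bases before the annotated start, from RefSeq on build GRCr8, at chr1:95418581-95418830 on the minus strand and chr7:35622211-35622460 on the plus strand. No entry was matched for Atp1b1. Capitals mark E boxes (CANNTG) and GC boxes (GGGCGG), searched on both strands, which did not overlap each other here.
Fxyd1: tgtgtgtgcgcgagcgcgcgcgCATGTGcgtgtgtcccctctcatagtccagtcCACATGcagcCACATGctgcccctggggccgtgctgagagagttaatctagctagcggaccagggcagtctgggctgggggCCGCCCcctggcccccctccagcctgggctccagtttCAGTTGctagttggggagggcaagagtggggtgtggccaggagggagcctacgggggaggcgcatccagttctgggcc
Atp2b1: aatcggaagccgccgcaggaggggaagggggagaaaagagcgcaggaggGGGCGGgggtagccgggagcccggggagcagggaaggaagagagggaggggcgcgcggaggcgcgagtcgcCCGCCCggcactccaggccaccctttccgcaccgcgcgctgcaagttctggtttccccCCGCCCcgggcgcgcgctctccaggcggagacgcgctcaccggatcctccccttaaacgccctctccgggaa
The Fxyd1 window holds 4 E boxes and 1 GC box, and the Atp2b1 window holds 3 GC boxes. An E box is found in 65.5% and a GC box in 30.5% of the 33469 promoters of that length in the table. GC content was 66.8% for Fxyd1 and 72.8% for Atp2b1, against a median of 51.2%. Footprints do not measure promoter activity, and these matches describe letters, not binding sites.

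Shares and ratios of footprints within a library do not depend on its depth, and gene length cancels when the ratio of 2 genes is compared between libraries. The share of beta-subunit footprints from Atp1b1 was 85.9% and 86.9% in the controls and 81.3% and 79.95% after Cpeb4 siRNA. It was lower in each siCpeb4 library than in each control. The share from Atp1b2 was 3.57% and 3.79% in the controls and 5.80% and 4.91% after siRNA, and that from Atp1b3 was 10.54% and 9.24% and then 12.9% and 15.1%. Both were higher in each siCpeb4 library, although the levels of these genes overlapped between the groups. Because Atp1b1 held most of the beta footprints, a lower Atp1b1 count by itself raises the other shares and any ratio to Atp1b1. Those shares and ratios are therefore not observations separate from the level of Atp1b1. Fxyd1 footprints per Atp1b1 footprint were 0.537 and 0.485 in the controls and 0.576 and 0.609 after siRNA. Shares are of counts and not of protein, because longer coding regions collect more footprints and no coding lengths were used here.

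**Figure D2:**
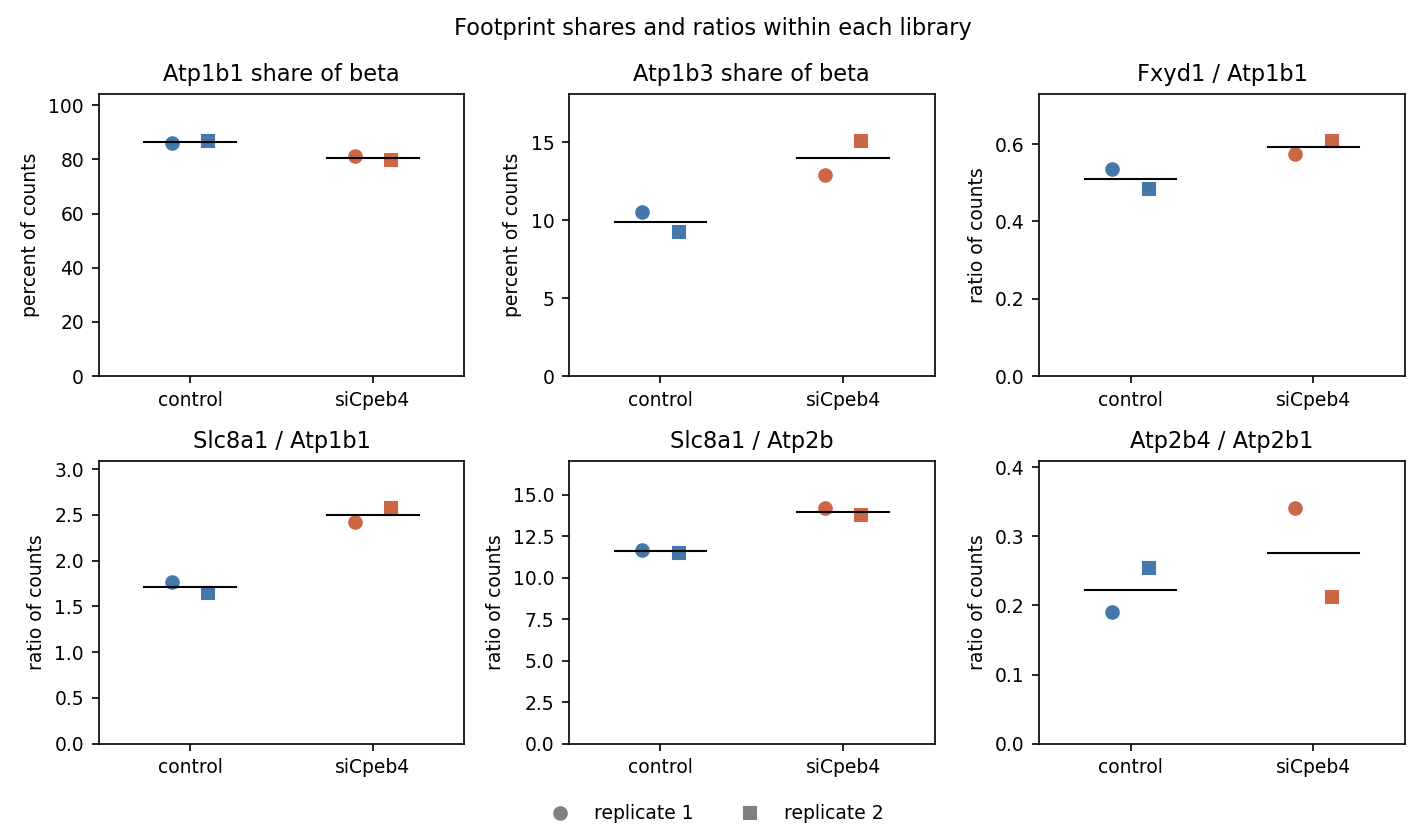
Shares (percent of counts) and ratios of counts (no unit) within each library (y axes, from 0) for the 2 control and 2 siCpeb4 libraries, with circles for replicate 1, squares for replicate 2 and a line at the group mean; beta and Atp2b are sums over the gene family. The Atp1b1 share of beta lies at 85.9% and 86.9% in controls and 81.3% and 79.95% after Cpeb4 siRNA, whereas Atp2b4 per Atp2b1 overlaps between the groups.

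Slc8a1, the cardiac sodium-calcium exchanger NCX1, was measured most deeply, with 5486 to 9735 counts per library. It had 1538 and 1571 CPM in the controls and 1579 and 1617 CPM in the siCpeb4 libraries. Both siCpeb4 values were above both controls, but the nearest of them were separated by a log2 difference of 0.0070. The log2 fold change was 0.04 ± 0.10 (SE), with means of 1554 ± 23.7 CPM and 1598 ± 27.0 CPM (SD, n = 2 each). Slc8a1 footprints per Atp1b1 footprint were 1.76 and 1.65 in controls and 2.42 and 2.57 after siRNA. The exchanger paralogues Slc8a2 and Slc8a3, which are known from brain and skeletal muscle, had 6 counts and 1 count in all libraries together. Slc8b1, the mitochondrial sodium-calcium exchanger, was at 9.78 CPM in the controls and 9.79 CPM in the siCpeb4 libraries on average (log2 fold change 0.02, edgeR adjusted p = 0.985), and its sign turned under 4 alternatives.

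Atp2b1 encodes PMCA1, the housekeeping plasma membrane calcium ATPase. It had 110 and 108 CPM in the controls and 82.9 and 96.5 CPM in the siCpeb4 libraries. Both siCpeb4 libraries lay below both controls, but siCpeb4 replicate 1 stood further off than replicate 2. The exact 95% Poisson interval of siCpeb4 replicate 2, 88.8 to 104.7 CPM, overlapped those of control replicates 1 and 2. These were 101.7 to 118.9 CPM and 97.3 to 119.4 CPM. The interval of siCpeb4 replicate 1, 75.0 to 91.3 CPM, overlapped neither. Means were 109 ± 1.496 CPM and 89.7 ± 9.64 CPM (SD, n = 2 each), a log2 fold change of -0.28 ± 0.12 (SE). Atp2b4, which encodes PMCA4, a pump linked to signalling complexes at the membrane, had 20.9 and 27.5 CPM in the controls and 28.2 and 20.4 CPM after siRNA. Its groups overlapped, with a log2 fold change of 0.02 ± 0.20 (SE). With 96 to 138 counts per library, its exact 95% Poisson interval in control replicate 1 was 17.4 to 24.98 CPM. The SD between replicates was 19.2% of the mean in controls and 22.7% after siRNA, and counting error was 10.2% in the library with fewest counts. With this spread and depth, small differences were not detectable. Atp2b4 footprints per Atp2b1 footprint were 0.190 and 0.255 in controls and 0.341 and 0.212 after siRNA. Of the paralogues, Atp2b2 had 14 counts in all and Atp2b3 had 0 in every library, which allows up to 0.498 to 0.859 CPM per library (3 counts, counting error only). Slc8a1 footprints per footprint of the Atp2b family were 11.7 and 11.5 in controls and 14.2 and 13.8 in the siCpeb4 libraries. Atp2b1 held 74.4% to 83.5% of the Atp2b footprints, so a lower Atp2b1 count by itself raises this ratio. The ratio is therefore not an observation separate from the level of Atp2b1.

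In the fit across 11335 genes tested, 1 of the 7 members was called, Atp1b1, which was lower (edgeR, adjusted p under 0.05). That compares with 3.41% of all genes tested in either direction, 1.54% higher and 1.87% lower. In edgeR 3 members had an unadjusted p under 0.05, beside 16.1% of all genes tested. DESeq2 and limma-voom each called 1 member too, and the edgeR call ended without control replicate 2, where the log2 fold change was -0.44. The groups did not overlap for 3 members on the lower side and 1 on the higher side, as for 22.3% and 23.1% of all genes tested (45.4% in either direction). The median log2 fold change of the 7 was 0.02, beside -0.0031 for all genes tested. Nothing is read from these counts, because the list was made with the comparison known.

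Of 37 other genes in a list of sodium and calcium transport genes, pump partners and relatives, 18 passed the low-count filter. Of these, 1 fell and 1 rose (edgeR, adjusted p under 0.05), beside 3.41% of all genes tested, and their median log2 fold change was -0.03. Slc4a4, the electrogenic sodium-bicarbonate cotransporter NBCe1, fell from 65.3 and 79.0 CPM to 36.4 and 35.2 CPM. On the log2 scale it changed by -1.001 ± 0.14 (SE; edgeR adjusted p = 0.000114). Slc4a7, the electroneutral cotransporter NBCn1, rose from 24.7 and 22.3 CPM to 41.5 and 51.5 CPM, a log2 difference of 0.98 ± 0.16 (edgeR adjusted p = 0.000686). Both carry sodium and bicarbonate into cells and thereby add to the sodium the pump must export. Their groups did not overlap, and both calls held with each library left out.

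None of the 7 tested partners of the pumps was called by edgeR, where 2 had an unadjusted p under 0.05, or by DESeq2 or limma-voom. Bsg, which encodes basigin, and Nptn, which encodes neuroplastin, are accessory proteins of plasma membrane calcium ATPases. Nptn had 205 and 189 CPM in the controls and 157 and 178 CPM after siRNA (log2 fold change -0.23 ± 0.11, edgeR adjusted p = 0.30), and Bsg had a log2 fold change of -0.02 ± 0.11. Nkain4, of a family named for its interaction with the sodium pump, had the most negative log2 fold change of the tested partners. Its counts were the lowest among them, at 20 to 31 per library. It had 5.32 and 8.88 CPM in the controls and 4.09 and 3.49 CPM after siRNA, a log2 difference of -0.85 ± 0.36 (edgeR adjusted p = 0.233). The ankyrins, adaptors that anchor transporters and channels to the membrane skeleton, had values of -0.0023 ± 0.12 for Ank2 and -0.02 ± 0.10 for Ank3. The calmodulin genes Calm2 and Calm3 had log2 fold changes of 0.15 and -0.04. In edgeR 4 of the 18 genes had an unadjusted p under 0.05, beside 16.1% of all genes tested.

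**Figure D3:**
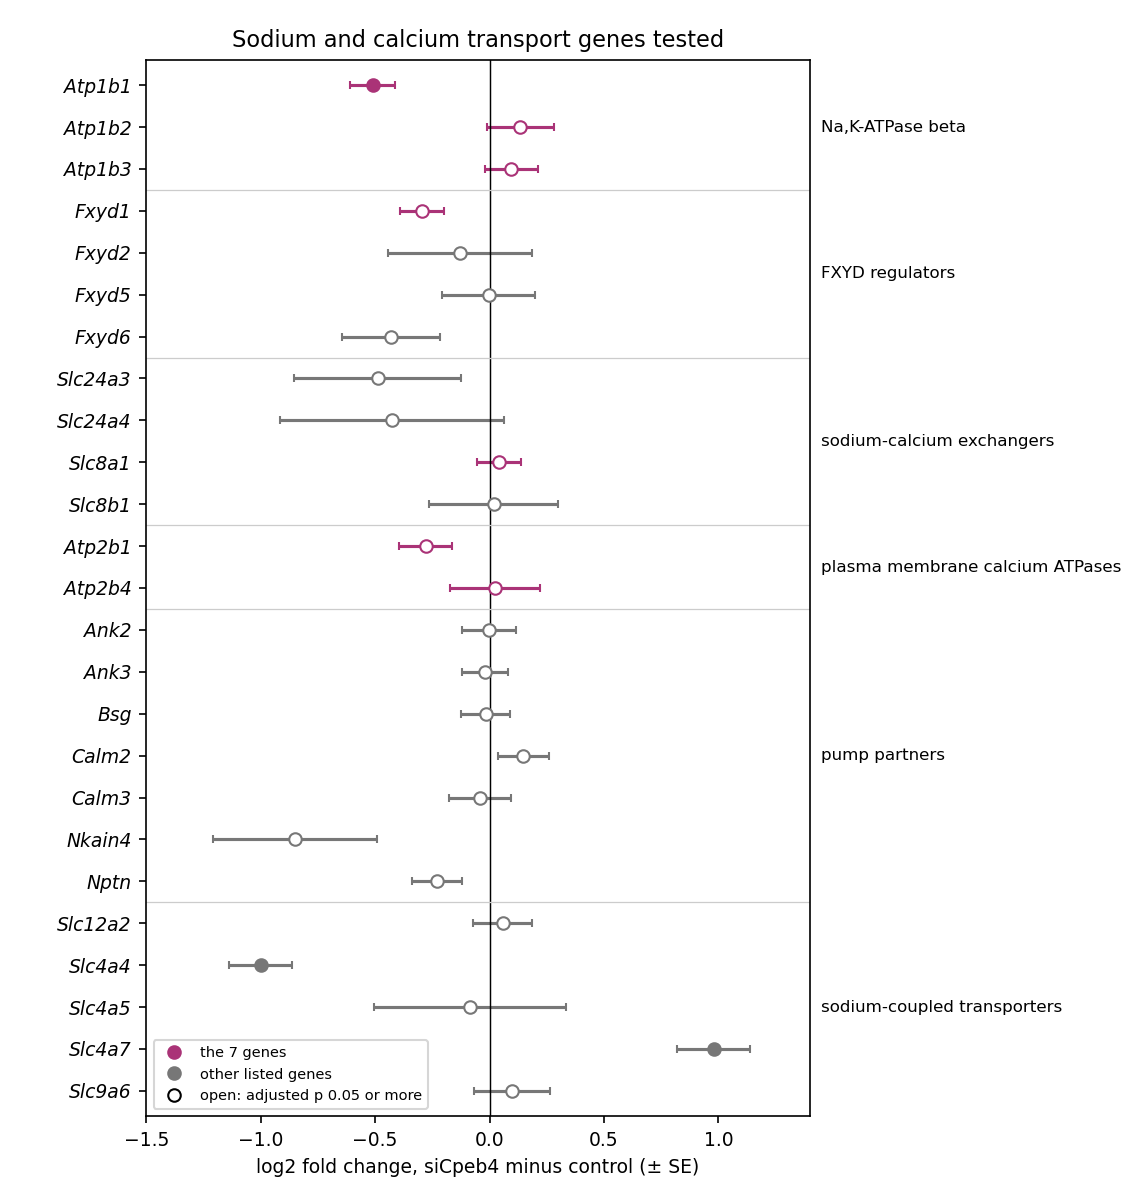
Log2 fold change, siCpeb4 minus control (x axis), with SE bars from edgeR, for each tested gene of the list (y axis), grouped by family; the 7 genes are in purple and other genes in grey, and filled points passed an adjusted p of 0.05. Filled points are Atp1b1 (-0.51), Slc4a4 (-1.001) and Slc4a7 (0.98), and Slc8a1 (0.04) lies near 0.

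Fibroblast markers differed between the groups as well. Of 12 fibroblast markers 11 were tested, 4 fell (edgeR, adjusted p under 0.05), beside 1.87% of all genes tested. A negative log2 fold change was found for 10 of them, beside 50.5% of all genes tested, and their median was -0.29. Most tested cardiomyocyte markers (9 of 11, median -0.10) and endothelial markers (6 of 8, median -0.075) were negative too, and none was called. Of the 8 smooth muscle and pericyte markers, 3 were negative and 5 positive. The fibroblast markers summed to 18988 and 17543 CPM in the controls and 12895 and 12715 CPM in the siCpeb4 libraries. Col1a2 had 0 counts in every library, where Col1a1 had 27959 to 50350, and the reason for the 0 was not tested. Most of the fibroblast sum came from matrix genes, whose mean levels went from 8321 to 5675 CPM (Col1a1), 4301 to 2650 CPM (Fn1) and 3391 to 2848 CPM (Col3a1). The groups overlapped for Dcn, Lum, Postn and Tcf21, and Tcf21 had a log2 fold change of 0.10. The sum therefore does not describe all fibroblast markers alike. The difference in the fibroblast sum had the direction of those of Atp1b1, Fxyd1 and Atp2b1, and its part in them was not tested. Endothelial markers summed to 152 to 183 CPM in the controls and 151 to 159 CPM after siRNA, and leukocyte markers to 480 to 707 and 454 to 591 CPM. Epicardial and mesothelial markers summed to 367 to 383 CPM in the controls and 300.2 to 340.1 CPM after siRNA. Most of that sum was Msln, at 219 CPM on average in the controls and 167 CPM after siRNA. Of 7 tested markers in that list 4 were negative and 3 positive, and none was called. Smooth muscle and pericyte markers summed to 5939 to 6069 and 6200.4 to 6452 CPM, mostly from Acta2, with means of 4067 and 4543 CPM. Markers of glia and neurons, cells in which Atp1b2 is well known, summed to 50.7 to 60.7 CPM in the controls and 44.4 to 50.8 CPM after siRNA. Most of that sum was Tubb3 alone, at 47.2 CPM on average in the controls and 39.8 CPM after siRNA. Only 2 of these 8 markers passed the low-count filter, and Sox10 and Snap25 were at 0 counts in every library.

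**Figure D4:**
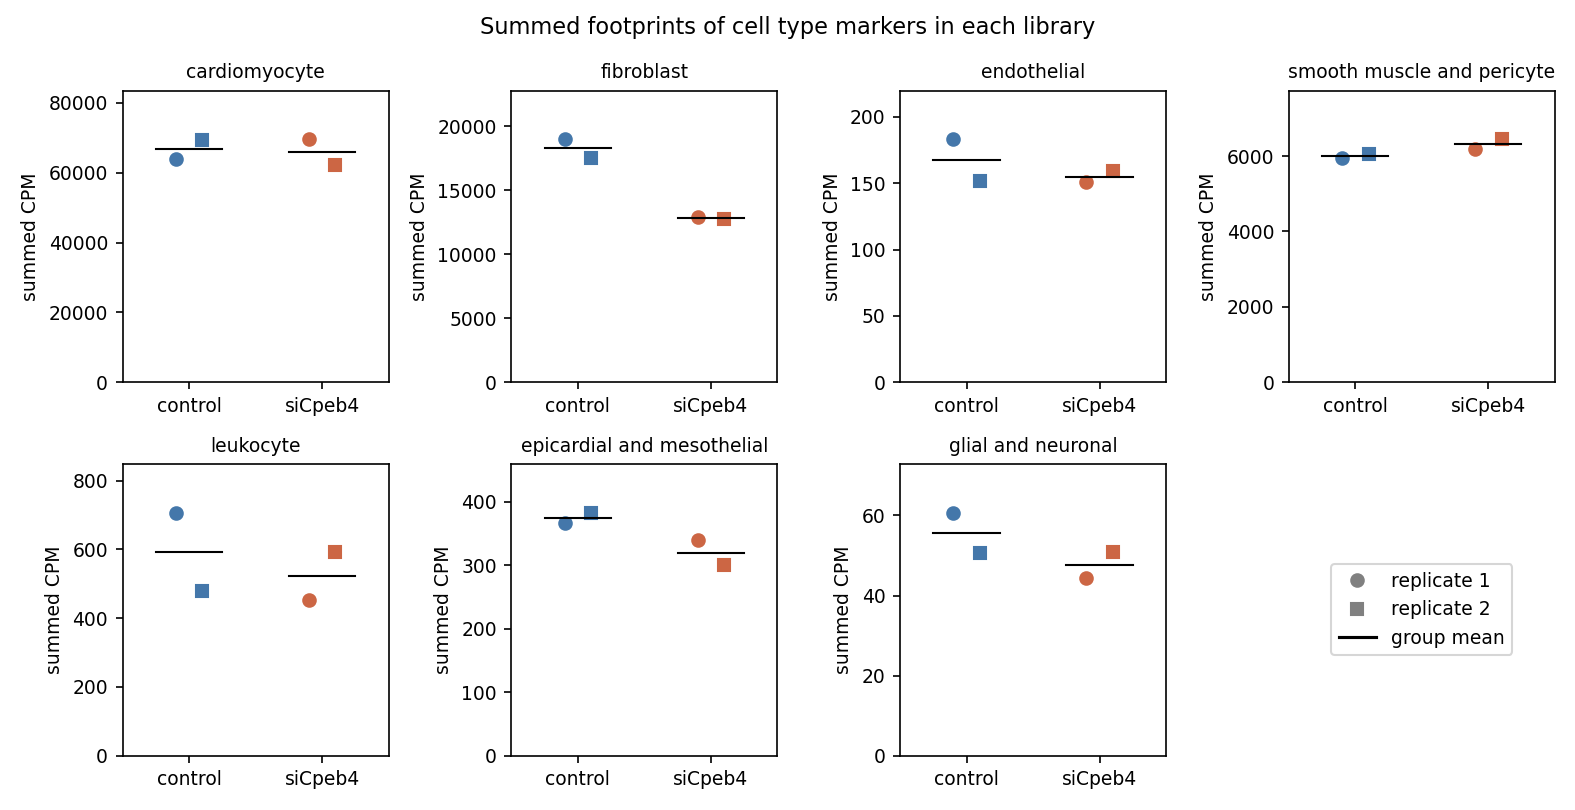
Summed CPM of each cell type marker list (y axis, from 0) in the 2 control and 2 siCpeb4 libraries, with circles for replicate 1, squares for replicate 2 and a line at the group mean. Fibroblast markers lie at 17543 to 18988 CPM in controls and 12715 to 12895 CPM after Cpeb4 siRNA, while cardiomyocyte markers overlap.

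For each member, the gene of nearest profile across the 4 libraries, by Euclidean distance between log2 levels centred on their own mean, is given as a description. It was Nceh1, a cholesterol ester hydrolase, for Atp1b1, with 110 and 121 CPM in the controls and 83.5 and 79.1 CPM after siRNA. For Fxyd1 it was Lox, the collagen-crosslinking lysyl oxidase, with 143 and 142 CPM in the controls and 114 and 118 CPM after siRNA. For Atp2b1 it was Msmo1, an enzyme of cholesterol synthesis, with 64.6 and 64.4 CPM and then 48.3 and 57.3 CPM. Nearest to Atp1b2, Atp1b3, Slc8a1 and Atp2b4 were Trim39, Cr1l, Zfp367 and Fads6. With 4 libraries and 11335 genes tested, distances were small for every member, between 0.0071 and 0.035 in log2 units.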

How the data were processed

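The authors deposited raw footprint counts per Ensembl gene, without normalisation. The tools named in the submitters' processing notes are Bowtie2, STAR 2.7 and HTSeq 0.12, with the rat build Rnor_6.0; their roles and the strand setting are not given in the sources used here. File names state uniquely mapped reads of 29 to 34 nt, and of 29 to 33 nt in siCpeb4 replicate 2. Close paralogues can lose reads under unique mapping. The 5 HTSeq summary rows were left out; reads without a gene were 4.42% to 4.63%.

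Counts were tested with edgeR 4.0.16 (quasi-likelihood test, TMM, filterByExpr with a minimum count of 10, Benjamini-Hochberg adjustment, threshold 0.05) in R 4.3.3; tests were two-sided, and SE come from the F statistic. DESeq2 1.42.0, limma-voom (limma 3.58.1) and 11 other alternatives were run. The workflow was tested on simulated data. Members and lists were chosen with earlier results of these data known. The text names the members, Cpeb4, called genes of the transport list, Slc8 and Atp2b paralogues, and nearest profiles by rule; the choice of any other gene was made with its values in view. Results of some listed genes are not reported here, and the lists are counted without them. Shares per codon were planned, but no coding lengths were used here, so ratios of counts are given instead. Promoters were matched by symbol for 6 of 7 members.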

Additional observations from a re-analysis of the deposited data

How the results depend on the processing

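Among 13 alternatives, the count of genes called was 386 in the reported fit, 192 in DESeq2, 606 without the low-count filter and 212 to 318 with 1 library left out. More genes entered the unfiltered fit, but whether that raised its count was not tested. The cause of the lower count in DESeq2 was not tested either. The calls were 174 higher and 212 lower with TMM, and 185 higher and 163 lower with library totals, so their balance depends on the scaling. Of the members 0 to 1 were called with 1 library left out. The log2 fold changes of Atp1b1, Fxyd1, Atp2b1, Atp1b2 and Slc8a1 kept their sign in all 13, and Atp1b1 was called in 12. The replicate number as a block called 403 genes, 1 member and 2 other transport genes and changed no call of a member. The deviations of same-numbered libraries had only a weak negative correlation across genes (r = -0.11). With 2 libraries per group, crossed numbers give the same value with the opposite sign by construction. The pairing with crossed numbers, added after seeing the data, called 481 genes, 1 member and 2 other transport genes. Signs turned for uncalled genes: Atp2b4 was -0.070 when thinned to the smallest library and -0.21 to 0.25 with 1 library left out, Atp1b3 was -0.010 to 0.19 with 1 left out, and Slc8b1 was -0.034 in limma-voom, -0.052 with the replicate block and -0.50 to 0.36 with 1 left out. Library totals in place of TMM moved each member by about 0.03.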
